A study of Macaca fascicularis with 11 samples.

Results

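The cells described here are undifferentiated epiblast cells of in vitro cultured cynomolgus monkey (Macaca fascicularis) embryos at Day 14, compared between ISL1 hypomorphic mutant and wild-type embryos. They were selected on measured values. In each cell the mean log level was taken over 5 epiblast genes (POU5F1, IFITM1, L1TD1, DPPA4, DNMT3B), 7 trophoblast genes, 7 extraembryonic mesenchyme genes and 6 endoderm genes, and a cell was kept if the epiblast mean was the highest, if NANOG or UTF1 had at least 1 transcript count, and if MIXL1, MESP1, ISL1 and CDX2, which mark nascent mesoderm and amnion, had none. This gave 393 cells of 18067 at Day 14 and of 33330 in the whole series. The embryos were dissociated and captured in droplet libraries, and each captured RNA molecule was tagged with a molecular barcode (UMI) and counted once. There were 2 wild-type libraries (replicate 1 and replicate 2, 2 embryos each) and 2 mutant libraries (replicate 1 from 3 embryos, replicate 2 from 1 embryo). Wild-type embryos carry no edit by their labels. Mutant embryos had been injected at the zygote stage with Cas9 and 2 guide RNAs against ISL1, and they are mosaic, most alleles being frameshift deletions near the start of the protein, so that single cells can keep in-frame alleles. Replicates are thus libraries, of embryo pools in 3 cases and of a single embryo in mutant replicate 2.

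The epiblast is the pluripotent layer of the embryo from which amnion, germ layers and germ cells arise. Around implantation it leaves a naive state, which still expresses genes of the oocyte and early cleavage embryo, for a primed state. ISL1, a LIM-homeodomain transcription factor, is known in these embryos from the amnion, the epithelium next to the epiblast, and its function there was the subject of the study. The question here is what differed in the epiblast cells themselves. Cells facing low oxygen are known to stabilise HIF transcription factors, which raise glucose transporters, glycolytic enzymes, lactate export and genes that damp mitochondrial respiration.

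Of the cells in a library, the selection took 170 of 3176 in wild-type replicate 1 (5.35%, exact binomial 95% interval 4.60 to 6.19), 12 of 1384 in wild-type replicate 2 (0.867%, 0.449 to 1.51), 181 of 9625 in mutant replicate 1 (1.88%, 1.62 to 2.17) and 30 of 3882 in mutant replicate 2 (0.773%, 0.522 to 1.10). The genotypes overlapped in this share. As a share of the cells in which the epiblast mean was highest, the selected cells made up 30.4% and 10.6% in wild-type and 50.7% and 34.5% in mutant libraries. Of the epiblast-highest cells, 388 of 559 and 100 of 113 in the wild-type and 120 of 357 and 48 of 87 in the mutant libraries had a barred gene, and 68, 21, 133 and 35 lacked both NANOG and UTF1, some cells counting under both. MIXL1 was seen in 55.6% and 18.6% of the epiblast-highest cells of the wild-type libraries and in 6.72% and 5.75% of those of the mutant libraries, and CDX2 in 51.0% and 86.7% against 12.9% and 16.1%. ISL1 was seen in 9.66% and 31.0% of the epiblast-highest cells of the wild-type libraries and in 21.0% and 44.8% of those of the mutant libraries. Summed over these cells, ISL1 transcripts were not lower in the mutants, but the sum is no level per ISL1-positive cell. In all epiblast-highest cells ISL1 stood at 7.63 and 48.1 CPM (UMIs scaled to 1e6 per library sum) in the wild-type and at 46.2 and 66.5 CPM in the mutant libraries, and since the sequenced 3′ ends can lie outside the deleted part, this does not check the labels. These shares are a description, since the rule reads these genes, and the intervals cover counting error only. They also depend on depth, since a shallow cell more often shows no transcript of a gene. The median cell of a library held 47803 and 24720 UMIs in the wild-type and 10916 and 23378 in the mutant libraries. By level in epiblast-highest cells, MIXL1 stood at 298 and 48.1 against 39.5 and 2.82 CPM. CDX2 stood at 85.9 and 362 against 46.5 and 20.6 CPM. The selection is a cut on a score: the member nearest to it had an epiblast mean 0.0769 natural log units above the next of the means, 13 members had a lead under 0.5, and the cell nearest outside that met the other criteria had a lead of -0.0144.

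The 4 libraries differed in depth and in signs of RNA quality. The median selected cell held 45584 and 27013 UMIs in the wild-type libraries and 8396 and 29280 in mutant replicates 1 and 2, and the sums compared below rest on 8229080, 298501, 1860712 and 1096373 UMIs. Wild-type replicate 2, with 12 cells, is the thinnest of them. It also stood apart from the other 3 libraries in targets of BMP signalling, with ID1 at 2322 CPM against 366 to 714 CPM and ID3 at 982 CPM against 123 to 195 CPM. The ambient RNA correction of the authors had removed 2.98% and 0.455% of the UMIs of the selected wild-type cells and 8.77% and 3.22% of those of the mutant cells. Cell barcodes shared between Day 14 libraries numbered 40, none of them among selected cells.

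The genes that chose the cells are given without a test. POU5F1, the core pluripotency factor, stood at 1310 and 1511 CPM in wild-type and at 1265 and 1630 CPM in mutant cells. NANOG ranged from 186 to 251 CPM and UTF1 from 329 to 446 CPM over the 4 libraries, each with the genotypes overlapping. IFITM1 was at 1967 and 1387 CPM in wild-type and at 3341 and 2076 CPM in mutant libraries, and DNMT3B, a de novo DNA methyltransferase, at 383 and 549 against 315 and 223 CPM. L1TD1, an RNA-binding protein gene of pluripotent cells, was at 633 and 553 against 435 and 373 CPM. For these 3 the libraries of the genotypes did not overlap, while POU5F1, NANOG, UTF1 and DPPA4 overlapped. Such separation was common: of all genes tested below, 23.1% were higher and 25.0% lower in the mutant without overlap. The separation of these 3 genes therefore does not set them apart from other genes. Among the rule's genes for other lineages, the trophoblast antigen XAGE3 was at 18.6 and 10.1 CPM in the wild-type and at 167 and 52.9 CPM in the mutant epiblast cells, where trophoblast-highest cells of the same libraries held 1662 to 3888 CPM. The mean over all 7 trophoblast genes had a median over cells of 0.0850 and 0.0860 in the wild-type and of 0.0839 and 0.0477 in the mutant libraries (natural log units). A median over cells is another measure than a summed level and need not show a few high cells. Whether XAGE3 stood for its set in summed level was not tested.

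Summed UMIs were compared between the 2 mutant and 2 wild-type libraries by the quasi-likelihood test of edgeR, two-sided, with p-values adjusted after Benjamini and Hochberg and called under 0.05. Of 7467 genes tested, 134 passed (1.79%). In the mutant, 112 were higher (1.50%) and 22 lower (0.295%). The median log2 fold change over all tested genes was 0.02. The smallest called difference was 1.14 on the log2 scale and the median size of called differences was 2.49. In all 134 called genes the 4 libraries did not overlap between genotypes, but such separation is common with 2 against 2, and 23.1% of the tested genes were higher in both mutant libraries and 25.0% lower in both. Symbols were at hand for 693 of the tested genes, and 60 of the called genes have one, 52 of them higher (7.50% of genes with a symbol) and 8 lower (1.15%). They come from supplementary tables in which the study listed genes that differ between cell types or genotypes in these same embryos, which is no independent choice: 8.66% of genes with a symbol were called against 1.09% of those without. The plot of all tested genes shows the called genes against their mean level.

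**Figure D1:**
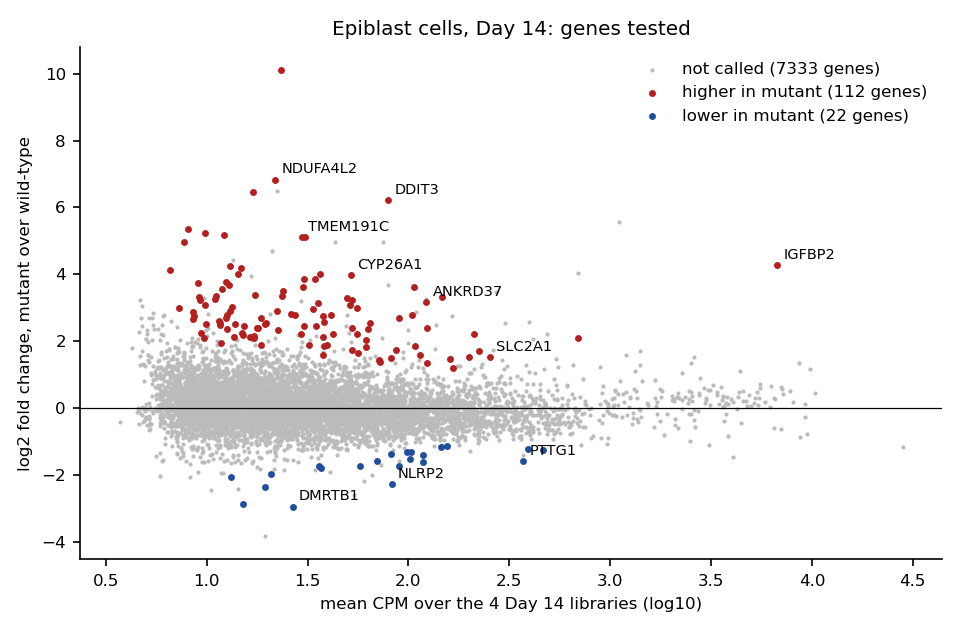
Log2 fold change of mutant over wild-type epiblast cells at Day 14 (vertical) against the mean level over the 4 libraries in CPM on a log10 axis (horizontal), 1 point per tested gene. Red points are the 112 genes called higher and blue points the 22 called lower in the mutant, and the higher calls reach much larger fold changes than the lower ones.

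Genes known to respond to low oxygen shared their direction. Of 26 symbols on the list, 21 have an identifier and 18 could be tested, and all 18 had a positive log2 fold change, with a median of 2.57 beside 0.02 for all genes. The test was passed by 8 of them, all higher in the mutant. Of all tested genes 1.50% were called higher, and of those with a symbol, from which the list is drawn, 7.50%. ANKRD37, an ankyrin-repeat protein gene induced by hypoxia, had 31.5 and 10.1 CPM in the wild-type and 212 and 237 CPM in the mutant libraries. Both mutant libraries lay far above both wild-type ones, and the log2 fold change was 3.16 ± 0.38 (SE, edgeR adjusted p = 0.00142). NDUFA4L2, which lowers the activity of respiratory complex I, was represented by 3 and 0 UMIs in the wild-type and by 75 and 51 UMIs in the mutant sums. In CPM this was 0.365 and 0 against 40.3 and 46.5. The pooled ratio was 121-fold with a counting interval of 40.5 to 595 (edgeR adjusted p = 0.000136). Both calls depended on a setting: with all 3 days in 1 fit NDUFA4L2 had an adjusted p of 0.296 at the same fold change, and with cells positive for the barred genes kept ANKRD37 had 3.16 with an adjusted p of 0.168.

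NDRG1, a stress-responsive gene, rose from 1.82 and 0 CPM to 22.6 and 32.8 CPM (log2 fold change 4.01 ± 0.56, edgeR adjusted p = 0.00294). LOX, the collagen cross-linking enzyme lysyl oxidase, rose from 0.486 and 3.35 CPM to 30.6 and 14.6 CPM (5.16 ± 0.69, edgeR adjusted p = 0.00241). LOX is also on the list of mesenchyme markers, and it missed the threshold without wild-type replicate 1 (2.86, edgeR adjusted p = 0.104) or mutant replicate 1 (4.49, edgeR adjusted p = 0.185). STC2, a secreted glycoprotein, rose from 10.7 and 13.4 CPM to 49.98 and 78.4 CPM (2.58 ± 0.43, edgeR adjusted p = 0.00724), and MXI1, an antagonist of MYC, from 10.4 and 13.4 CPM to 48.4 and 67.5 CPM (2.45 ± 0.42, edgeR adjusted p = 0.00848). SLC2A1, the glucose transporter GLUT1, had 152 and 114 CPM in wild-type and 360 and 388 CPM in mutant cells (1.53 ± 0.28, edgeR adjusted p = 0.0129), a smaller fold at a higher level. In cells of 10000 UMIs or more, each thinned to 10000, NDRG1, MXI1 and SLC2A1 missed the threshold (edgeR adjusted p = 0.122, 0.0680 and 0.0791). STC2 missed it with all 3 days in 1 fit (edgeR adjusted p = 0.161). MGARP, a mitochondrial protein gene outside the list, rose from 3.65 and 6.70 CPM to 44.1 and 67.5 CPM (3.86 ± 0.50, edgeR adjusted p = 0.00185).

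**Figure D2:**
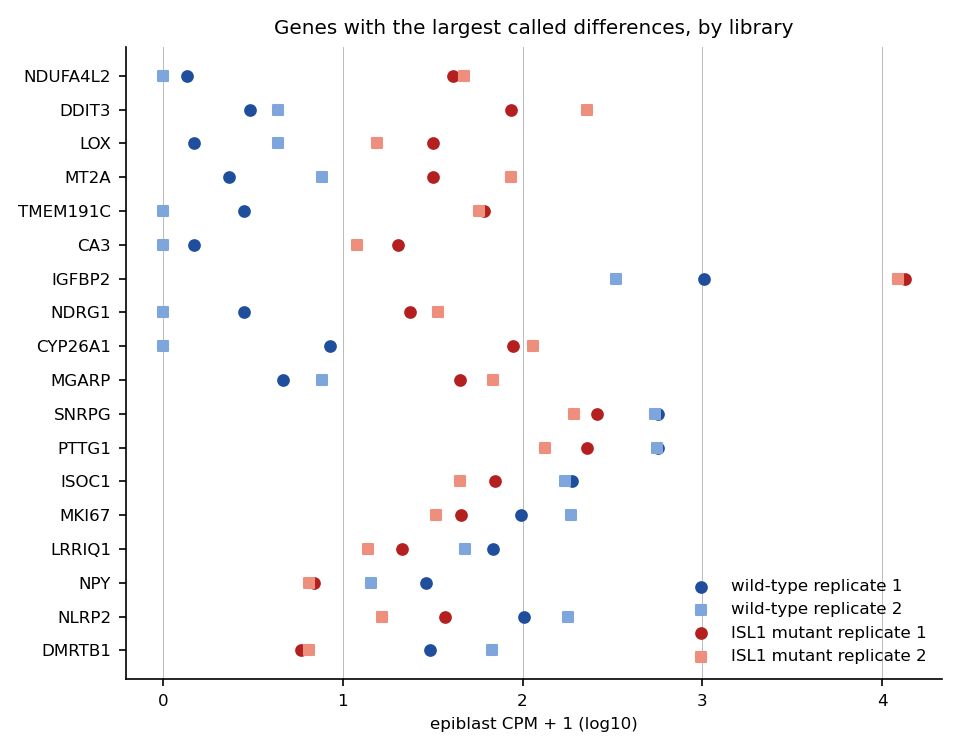
Level in each Day 14 library, as CPM + 1 on a log10 axis, of the 10 genes called higher with the largest fold changes among those with a symbol, and of the 8 genes with a symbol called lower. Blue marks are wild-type and red marks mutant libraries, circles replicate 1 and squares replicate 2. In no gene do blue and red marks overlap, which was a condition of the choice.

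Of the enzymes and transporters of glycolysis, all 14 members with an identifier could be tested, and 4 passed, all higher, beside 1.50% of all tested genes and 7.50% of those with a symbol. A positive log2 fold change was seen in 13, and the median was 1.44. Besides SLC2A1 these were aldolase C (ALDOC, from 24.6 and 6.70 to 83.8 and 143 CPM, log2 fold change 2.54 ± 0.47, edgeR adjusted p = 0.0249), enolase 2 (ENO2, from 7.17 and 0 to 30.6 and 33.8 CPM, 2.39 ± 0.50, edgeR adjusted p = 0.0281) and the lactate exporter SLC16A3 (from 33.4 and 6.70 to 119 and 88.5 CPM, 2.02 ± 0.43, edgeR adjusted p = 0.0400). Summed over the list, the wild-type libraries held 16012 and 9193 CPM and the mutant libraries 23715 and 28837 CPM. The 2 wild-type libraries differed from each other by nearly as much as the higher of them from mutant replicate 1. Once cells under 10000 UMIs were left out, none of the 4 calls remained, although 13 of the 14 genes still had a positive log2 fold change, with a median of 1.37. In cells of 10000 UMIs or more, the median glycolysis level of mutant replicate 1 was 141 UMIs per 10000, below the 161 of wild-type replicate 1, and those of wild-type replicate 2 and mutant replicate 2 were 89.7 and 271. The shallower cells of mutant replicate 1 had 301. With the replicate number as a block SLC2A1 and ENO2 missed the threshold (edgeR adjusted p = 0.0591 and 0.0760). With 1 library left out the median log2 fold change of the list ran from 1.07 (without wild-type replicate 2) to 2.38 (without wild-type replicate 1).

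Single cells showed how these sums arose. Per 10000 UMIs of a cell, the 21 hypoxia genes together had a median of 29.8 UMIs (quartiles 24.9 and 37.2) in the 170 cells of wild-type replicate 1 and of 9.95 UMIs (9.12 and 11.7) in the 12 cells of wild-type replicate 2. In mutant replicate 1 the median was 66.3 UMIs with quartiles of 28.1 and 91.7, and in mutant replicate 2 it was 92.0 with 74.1 and 114.5. The lowest of the 30 cells of mutant replicate 2 had 46.9 UMIs, and every one exceeded the median of wild-type replicate 1, as 74.0% of the cells of mutant replicate 1 did. Mutant replicate 1 was therefore spread wide, with some cells in the range of wild-type replicate 1 and others far above it.

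**Figure D3:**
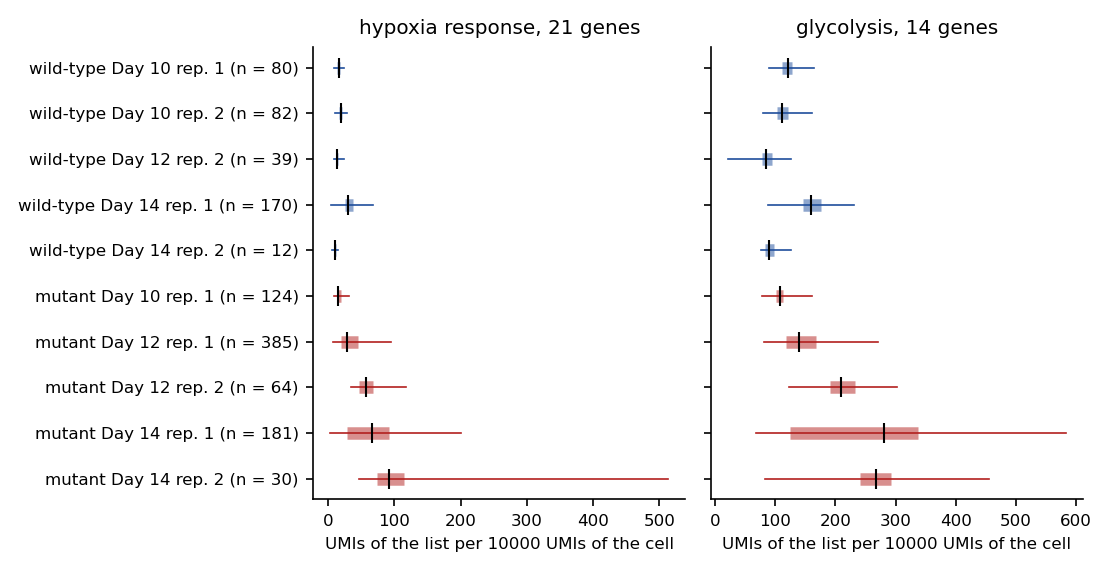
UMIs of the hypoxia list (left, 21 genes) and of the glycolysis list (right, 14 genes) per 10000 UMIs of a cell, for the selected epiblast cells of each library with 5 or more of them. Thin lines run from the lowest to the highest cell, thick bars between the quartiles and ticks mark medians; the 2 mutant Day 14 libraries have the highest medians in both panels.

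Mitochondrial transcripts moved with this signal in both mutant libraries, and of the mutant libraries depth did so in replicate 1. In mutant replicate 1 the 81 cells with 10000 UMIs or more (median 14096) had a median of 35.0 hypoxia UMIs per 10000, and the 100 shallower cells had 77.1. The 163 cells of wild-type replicate 1 above the same limit had 29.8, at a median of 46261 UMIs. The shallower cells also had fewer mitochondrial transcripts, 165 against 536 UMIs per 10000. In mutant replicate 2 the 26 cells with 10000 UMIs or more, at a median of 31114 UMIs, had 92.0. Across the cells of 1 library, all of the same capture, the hypoxia level was negatively related to the mitochondrial level in both mutant libraries (Spearman's rho -0.73 over 181 cells and -0.61 over 30 cells) and hardly in wild-type replicate 1 (-0.05 over 170 cells). In the 12 cells of wild-type replicate 2 rho was 0.09. With cells under 10000 UMIs left out, 6 of 18 hypoxia genes still passed and the median log2 fold change was 2.46. With the remaining cells also thinned to 10000 UMIs each, 5 of 15 passed with a median of 2.26. Calls over all genes were also fewer under both settings, as given in the section on processing. The median was 2.99 without mutant replicate 1, 2.03 without mutant replicate 2, 3.74 without wild-type replicate 1 and 2.27 without wild-type replicate 2. In each case all tested members were positive. Against the UMIs of a cell, rho of the hypoxia level was -0.35 in mutant replicate 1 and 0.07 in mutant replicate 2. It was -0.06 in wild-type replicate 1 and -0.45 in the 12 cells of wild-type replicate 2. The 7 cells of wild-type replicate 1 under 10000 UMIs, with a median of 12.9 mitochondrial UMIs per 10000, had 18.7 hypoxia UMIs, below the 29.8 of the deeper ones. The part of RNA quality in the result was not tested, and 7 cells of 1 library cannot decide it.

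Genes of the integrated stress and endoplasmic reticulum stress response did not move as a block. Of 8 tested, 2 passed, both higher, beside 1.50% of all tested genes and 7.50% of those with a symbol, and the median log2 fold change was 1.15. DDIT3, which encodes the stress transcription factor CHOP, had 17 and 1 UMIs in the wild-type and 158 and 248 UMIs in the mutant sums, or 2.07 and 3.35 CPM against 84.9 and 226 CPM. With a log2 fold change of 6.22 ± 0.74 (edgeR adjusted p = 0.00786) it was the second largest change among named genes, and with all 3 days in 1 fit it did not pass (6.18, edgeR adjusted p = 0.219). ATF3, a transcription factor of stress and immediate early responses, rose from 11.8 and 0 to 81.2 and 105 CPM (3.28 ± 0.52, edgeR adjusted p = 0.0118), a call that DESeq2 did not make (adjusted p = 0.411). The chaperone HSP90B1, in contrast, had 552 and 737 CPM in wild-type and 551 and 318 CPM in mutant cells (-0.49 ± 0.30, edgeR adjusted p = 0.470). P4HB had 283 and 161 against 615 and 465 CPM (1.30 ± 0.32) and missed the threshold at an edgeR adjusted p of 0.0551. Of 3 p53 target and apoptosis genes tested none passed, and their log2 fold changes lay between -0.26 and -0.02. Of 4 immediate early genes ATF3 alone passed, against the same shares.

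Metallothioneins, small proteins that bind zinc and copper, had a median log2 fold change of 2.54 over 5 genes, all positive. Of them 1 passed as higher, beside 1.50% of all tested genes and 7.50% of those with a symbol. Without mutant replicate 2 or wild-type replicate 1 the median was 2.26 and 1.74, with 3 of the 5 positive each time. Without either of the other libraries all 5 stayed positive. MT2A rose from 1.34 and 6.70 to 30.6 and 84.8 CPM (5.12 ± 0.84, edgeR adjusted p = 0.0231), and with DESeq2 the adjusted p was 0.0755. MT1X had 52.4 and 46.9 CPM in wild-type and 803 and 3539 CPM in mutant libraries, a log2 fold change of 5.55 ± 1.01 that did not pass (edgeR adjusted p = 0.120), the mutant libraries being far apart. MT3 had 46.5 and 164 against 447 and 542 CPM (2.54 ± 0.59, edgeR adjusted p = 0.124).

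Among secreted and signalling genes, IGFBP2, an insulin-like growth factor binding protein, stood out by its level. It took 1016 and 328 CPM in the wild-type and 13376 and 12167 CPM in the mutant libraries (log2 fold change 4.28 ± 0.57, edgeR adjusted p = 0.00258), the highest level of any gene named as called. With all 3 days in 1 fit IGFBP2 had an adjusted p of 0.127 and CYP26A1, described next, of 0.122. IGFBP5, of the same family, rose from 1.82 and 0 to 11.3 and 23.7 CPM (3.31 ± 0.64, edgeR adjusted p = 0.0166; with the replicate block 0.0609). CYP26A1, the enzyme that degrades retinoic acid, rose from 7.53 and 0 to 87.1 and 114 CPM (3.98 ± 0.49, edgeR adjusted p = 0.00164). This call depended on the barred genes: with MIXL1, MESP1, ISL1 and CDX2 positive cells left in, its log2 fold change was 1.43 (edgeR adjusted p = 0.676).

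In the WNT list 2 of 7 tested genes passed, both higher, beside 1.50% of all tested genes and 7.50% of those with a symbol. APCDD1, a membrane-bound WNT inhibitor, rose from 3.89 and 6.70 to 39.8 and 43.8 CPM (3.35 ± 0.47, edgeR adjusted p = 0.00295), and WLS, which carries WNT proteins to the cell surface, from 5.10 and 6.70 to 46.8 and 31.0 CPM (2.91 ± 0.45, edgeR adjusted p = 0.00503). With cells positive for the barred genes kept, WLS had 1.34 (edgeR adjusted p = 0.0703). The secreted inhibitors SFRP1 and SFRP2, at 326 and 50.2 against 572 and 183 CPM and at 198 and 268 against 135 and 103 CPM, did not pass. Of the remaining genes with the largest changes, carbonic anhydrase 3 (CA3) rose from 0.486 and 0 to 19.4 and 10.95 CPM (4.96 ± 0.72, edgeR adjusted p = 0.00338) and TMEM191C from 1.82 and 0 to 60.2 and 56.6 CPM (5.10 ± 0.51, edgeR adjusted p = 0.000239). Beside the same 1.50% and 7.50% called higher, fibronectin (FN1) was the only call among 11 matrix and adhesion genes tested, with 17.1 and 6.70 against 81.2 and 46.5 CPM (2.13 ± 0.41, edgeR adjusted p = 0.0166), and the sterol reductase TM7SF2 the only one of 3 lipid synthesis genes, with 3.04 and 3.35 against 18.3 and 27.4 CPM (2.90 ± 0.51, edgeR adjusted p = 0.0103). With cells positive for the barred genes kept FN1 had 1.82 (edgeR adjusted p = 0.183), and without wild-type replicate 1 CA3 and TM7SF2 missed the threshold (edgeR adjusted p = 0.0773 and 0.112). With all 3 days in 1 fit TMEM191C, CA3 and TM7SF2 had edgeR adjusted p of 0.0544, 0.0914 and 0.0987.

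The 22 lower genes included NLRP2, a gene of the oocyte and early embryo that belongs to the naive-state list. It had 102 and 178 CPM in the wild-type and 36.0 and 15.5 CPM in the mutant libraries (log2 fold change -2.27 ± 0.39, edgeR adjusted p = 0.00978). It was the only call among 8 naive-state genes tested, beside 0.295% of all tested genes and 1.15% of those with a symbol called lower. The median of the list was -0.24, with 3 positive members (up to 2.81) and 5 negative ones (down to -2.44). DNMT3L, the cofactor of de novo DNA methylation, had 13.4 and 23.4 against 2.69 and 2.74 CPM and just missed the threshold (-2.44 ± 0.58, edgeR adjusted p = 0.0503), and OOEP, of the maternal complex, had 39.0 and 46.9 against 12.9 and 21.0 CPM (-1.25 ± 0.42, edgeR adjusted p = 0.165). KHDC3L, of the same complex, overlapped between genotypes with 5732 and 2794 against 2694 and 3450 CPM (-0.40 ± 0.42).

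DMRTB1, a DM-domain transcription factor gene, fell from 29.4 and 67.0 to 4.84 and 5.47 CPM (-2.95 ± 0.52, edgeR adjusted p = 0.0113). It fell further in trophoblast-highest cells, where the libraries held 85.5 and 73.5 against 2.60 and 1.53 CPM. ISOC1 fell from 188 and 171 to 69.3 and 43.8 CPM (-1.61 ± 0.29, edgeR adjusted p = 0.0127), and SNRPG, a core protein of the spliceosome, from 566 and 543 to 258 and 192 CPM (-1.23 ± 0.27, edgeR adjusted p = 0.0356). The neuropeptide gene NPY (28.1 and 13.4 against 5.91 and 5.47 CPM, edgeR adjusted p = 0.0475) and LRRIQ1 (67.9 and 46.9 against 20.4 and 12.8 CPM, edgeR adjusted p = 0.0297) were also lower. NPY missed the threshold with DESeq2 (adjusted p = 0.74), with the mean over cells in limma (-1.06), without cells under 10000 UMIs, with further genes barred, with the replicate block and without wild-type replicate 1 (-1.09) or mutant replicate 1. With the replicate block LRRIQ1 and SNRPG had edgeR adjusted p of 0.0590 and 0.139.

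Of 20 genes of the cell cycle tested, 2 passed, both lower, beside 0.295% of all tested genes and 1.15% of those with a symbol. A negative log2 fold change was seen in 18, and the median was -0.78. In cells thinned to 10000 UMIs the median was -0.44 with 1 gene higher and 1 lower, and with the replicate block 1 was higher and 0 lower. MKI67, the proliferation antigen Ki-67, fell from 97.2 and 184 to 44.6 and 31.9 CPM (-1.72 ± 0.35, edgeR adjusted p = 0.0213), and PTTG1, the securin that guards sister chromatid separation, from 565 and 560 to 227 and 132 CPM (-1.58 ± 0.29, edgeR adjusted p = 0.0127). NASP and HELLS, used in S phase, had log2 fold changes of -0.75 ± 0.28 and -0.63 ± 0.28 and did not pass. In cells thinned to 10000 UMIs MKI67 had -0.95 (edgeR adjusted p = 0.409), while PTTG1 still passed (-1.39, edgeR adjusted p = 0.0245). Without cells under 10000 UMIs PTTG1 had -1.46 (edgeR adjusted p = 0.0512), and with the replicate number as a block both missed the threshold (edgeR adjusted p = 0.0512 for MKI67 and 0.0502 for PTTG1). PTTG1 also missed the threshold without mutant replicate 2 (-1.33, edgeR adjusted p = 0.203). Within mutant replicate 1 the cell cycle list had a median of 36.6 UMIs per 10000 in cells of 10000 UMIs or more and of 24.7 in the shallower cells, which are those with fewer mitochondrial transcripts. Across cells its level was negatively related to the hypoxia level in both mutant libraries (Spearman's rho -0.62 over 181 and -0.45 over 30 cells). In the wild-type, rho was -0.17 over the 170 cells of replicate 1 and -0.51 over the 12 cells of replicate 2. The part of RNA quality in these differences was not tested.

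Pluripotency regulators outside the rule gave no call among 10 tested, with a median of -0.02 and a range from -0.55 to 1.11. Only 1.79% of all tested genes and 8.66% of those with a symbol were called in either direction. Little can therefore be read from the absence of a call in this list or in the short ones that follow. TERF1, a telomere-binding protein gene abundant in pluripotent cells, had 1052 and 1139 CPM in the wild-type and 1448 and 1634 CPM in the mutant libraries (0.58 ± 0.32). DPPA5 had 3264 and 2462 against 2785 and 2395 CPM (-0.08 ± 0.35) and LIN28A 372 and 338 against 287 and 180 CPM (-0.55 ± 0.28). None of 11 primed-state genes passed (median 0.12), CD24 among them with 674 and 526 against 821 and 615 CPM. NODAL signalling (3 tested, median 0.40), FGF and ERK signalling (5, -0.10), anterior and neural genes (5, -0.03) and germ cell markers (4, -0.18) likewise held no called gene. No change smaller than 1.14 on the log2 scale was called for any gene.

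BMP signalling, the pathway through which amnion is known to act on the epiblast, had no call among 9 genes tested (median -0.13, range -1.39 to 1.90). Beside it stand 1.79% of all tested genes and 8.66% of those with a symbol called in either direction. In the comparison with trophoblast-highest cells described below, 1 of its 12 tested genes, BMP4, differed, with the higher effect in epiblast. Of all genes in that test 1.59% did so. Wild-type replicate 2 was the highest of the 4 libraries in its abundant members. BAMBI, a BMP target and pseudoreceptor, had 94.1 and 224 CPM in wild-type and 102 and 108 CPM in mutant cells (-0.41 ± 0.36), and ID1 had 366 and 2322 against 435 and 714 CPM (-1.07 ± 1.08). Only 3 of 15 primitive streak and mesoderm genes could be tested, without a call. Among them HAND1 had 0.608 and 16.8 CPM in wild-type and 23.1 and 25.5 CPM in mutant cells (3.95 ± 1.28, edgeR adjusted p = 0.244). CDX1, which was too low to be tested, had 43.5 CPM in wild-type replicate 2 and at most 2.15 CPM in the other libraries. No HOX gene passed the filter on low counts, and the 15 genes together summed to at most 6.99 CPM in any library.

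Summed levels of trophoblast, amnion, mesenchyme and endoderm markers were higher in the mutant libraries. From these lists 2 genes passed as higher, beside 1.50% of all tested genes and 7.50% of those with a symbol. Germ cell markers (145 and 158 against 142 and 105 CPM) and primitive streak and mesoderm genes (51.3 and 134 against 89.2 and 77.5 CPM) were not higher in sum. The 16 trophoblast markers outside the rule summed to 797 and 670 CPM in the wild-type and to 1592 and 1315 CPM in the mutant libraries, none of 12 tested passed, and the median was 1.29. Trophoblast-highest cells of the same libraries held 9024 to 11914 CPM. The median epiblast cell had 5.52 and 6.18 UMIs of these markers per 10000 in the wild-type and 6.24 and 5.53 in the mutant libraries, so the medians overlapped. The highest single cells had 78.95 and 12.2 in the wild-type and 130 and 258.5 in the mutant libraries. Without mutant replicate 1 the list had a median of 0.20 with 5 of 10 genes positive. Amnion markers likewise had overlapping cell medians, 6.84 and 10.57 against 8.34 and 8.29, whereas mesenchyme markers had 1.83 and 1.51 against 4.16 and 2.74. The mesenchyme markers summed to 208 and 245 against 689 and 357 CPM with 1 call, LOX, of 7 tested. VIM, the mesenchymal intermediate filament, had 21.4 and 87.1 against 281 and 157 CPM (2.48 ± 0.71, edgeR adjusted p = 0.207). Endoderm markers summed to 1602 and 1571 against 3593 and 3857 CPM, nearly all from APOE, which had 1456 and 1477 against 3359 and 3741 CPM (1.36 ± 0.35, edgeR adjusted p = 0.0690). In the 20 amnion markers IGFBP5 alone of 12 tested passed, and KRT19, which is also a trophoblast marker, had 289 and 312 against 557 and 713 CPM (1.18 ± 0.29, edgeR adjusted p = 0.0613). With cells of a high trophoblast, mesenchyme or endoderm mean left out (5 and 0 wild-type and 17 and 1 mutant cells), 215 genes passed, 129 of the 134 among them. The part of these transcripts in the result was not tested.

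Transcripts of the mitochondrial genome, 13 genes, had a median log2 fold change of -0.63 without a call. They summed to 33928 and 73842 CPM in the wild-type and to 41634 and 19989 CPM in the mutant libraries, which overlapped. Imprinted genes had 7 positive fold changes of 7 (median 0.76) and no call, with SNRPN at 1236 and 817 against 1124 and 1453 CPM and NNAT at 205 and 255 against 346 and 381 CPM. The 3 genes of DNA methylation and chromatin gave no call. For these lists too, 1.79% of all tested genes and 8.66% of those with a symbol were called. The plot of list medians sets all lists with 3 or more tested members side by side.

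**Figure D4:**
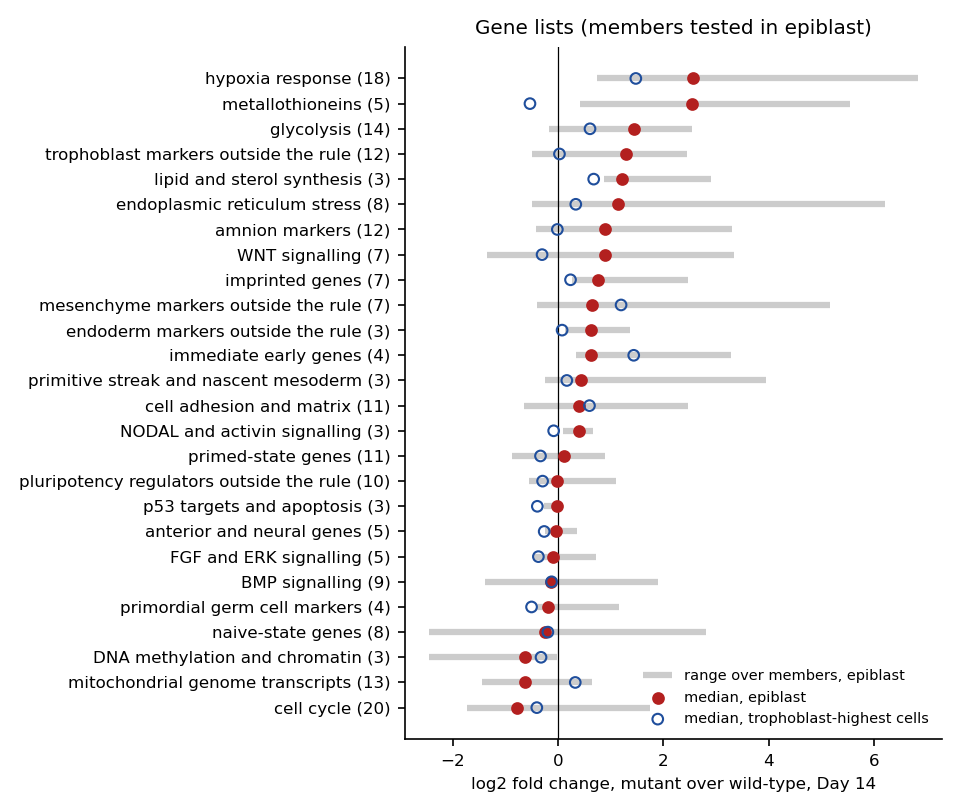
Median log2 fold change of mutant over wild-type at Day 14 for each gene list with 3 or more members tested, in epiblast cells (red points, grey bars from the lowest to the highest member) and in trophoblast-highest cells (open blue circles). Hypoxia response and metallothioneins have the highest epiblast medians, 2.57 and 2.54, and cell cycle the lowest, -0.78.

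Whether these differences were those of the whole embryo was asked by comparing them with the differences in the 12579 trophoblast-highest cells of the same 4 libraries. In those cells alone, fitted in the same way, 0 of 13880 genes passed edgeR's test (0.00%), although 1664 had an unadjusted p under 0.05. The genes called in epiblast leaned the same way there. Those called higher had a median log2 fold change of 0.72 over 107 genes, and those called lower of -0.68 over 22, beside 0.03 for all genes. In epiblast these medians were 2.66 and -1.59. In the test of the difference between the 2 effects, with the library as a block, 294 of 13120 genes passed (2.24%), 208 of them with the higher (1.59%) and 86 with the lower effect in epiblast (0.655%). Of the 112 genes higher in mutant epiblast, 57 were among the 208, and of the 22 lower genes 3 were among the 86 (NLRP2, MKI67 and PTTG1). These genes share the epiblast sums with the first comparison.

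In trophoblast-highest cells no member of the hypoxia list passed. The median log2 fold change of the list was 1.48 there over 21 genes, beside 0.03 for all genes. In the test of the difference 7 of 21 differed in effect with the higher in epiblast and 1, CA12, with the lower. Over all genes tested these shares were 1.59% and 0.655%. ANKRD37, at 5.29 and 3.30 against 21.2 and 23.1 CPM in trophoblast-highest cells, had effects of 3.16 in epiblast and 2.35 in trophoblast, which did not differ by the test (difference of effects 0.94, edgeR adjusted p = 0.315). NDRG1 behaved in the same way (4.01 and 2.56). NDUFA4L2 and DDIT3 did differ. NDUFA4L2 had 0.982 and 1.16 against 2.54 and 1.25 CPM in trophoblast-highest cells (difference of effects 6.07, edgeR adjusted p = 3.64e-08), and DDIT3 26.3 and 21.6 against 29.1 and 25.2 CPM (5.94, edgeR adjusted p = 2.5e-25). All 5 metallothioneins differed with the higher effect in epiblast, as did 4 of 14 glycolysis genes (GAPDH, PGK1, PKM and SLC16A3) and 1.59% of all genes tested. Of the 5 metallothioneins 1, MT2A, had passed in the epiblast comparison. Of the 13 mitochondrial transcripts 8 differed with the lower effect in epiblast, beside 0.655% of all genes tested. The lists are drawn from genes with a symbol, whose share in this test was not computed.

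Embryos of Day 12 were captured in other libraries and give a second look. The selection took 39 cells of wild-type replicate 2, 385 of mutant replicate 1 and 64 of mutant replicate 2, while wild-type replicate 1, with 2 cells, was left out, so the lone wild-type library is assumed to vary like the mutant ones. Of 8280 genes tested 139 passed (1.68%), 38 higher (0.459%) and 101 lower (1.22%) in the mutant. Of the genes called at Day 14, 97 of the 112 higher ones could be tested. At Day 12 86 of them had a positive log2 fold change, with a median of 1.32 beside 0.02 for all genes, but 4 passed. Of the 22 lower genes 17 were negative, with a median of -0.40, and none passed. The hypoxia list had a median of 2.79 over 19 genes with 1 call (BNIP3, higher). Other lists differed from Day 14. Metallothioneins had a median of -1.66 with 2 of 5 lower, MT3 among them with 693 CPM in wild-type and 177 and 158 CPM in mutant cells. BMP signalling had a median of 1.47 with 2 of 10 higher, BAMBI and ID3, at 46.1 against 129 and 136 CPM and at 98.2 against 382 and 375 CPM. Cell cycle genes had a median of 0.10 over 22 genes and no call. The difference between the days was not tested.

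ANKRD37 had 2.34 and 3.46 CPM in wild-type and 6.02 CPM in mutant cells at Day 10, 4.68 CPM against 25.8 and 48.3 CPM at Day 12, and 31.5 and 10.1 against 212 and 237 CPM at Day 14. NDUFA4L2 was at 0 CPM in both wild-type and at 0.1003 CPM in the mutant library of Day 10, and at 0 against 3.93 and 46.5 CPM at Day 12. DDIT3 was at 3.04, 4.15 and 3.01 CPM in the Day 10 libraries and at 4.01 CPM in wild-type Day 12, and mutant replicates 1 and 2 of Day 12 differed, with 3.46 and 39.5 CPM. In each of these 3 genes mutant replicate 2 lay above replicate 1 at Day 12. In the wild-type NLRP2 went from 948 and 905 CPM at Day 10 to 432 CPM at Day 12 and to 102 and 178 CPM at Day 14. In the mutant it was at 390 CPM, at 206 and 111 CPM, and at 36.0 and 15.5 CPM, below the wild-type of the same day each time. DMRTB1 took the same course, from 143 and 148 CPM against 54.4 CPM at Day 10. With 1 mutant library at Day 10, no test was made there.

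**Figure D5:**
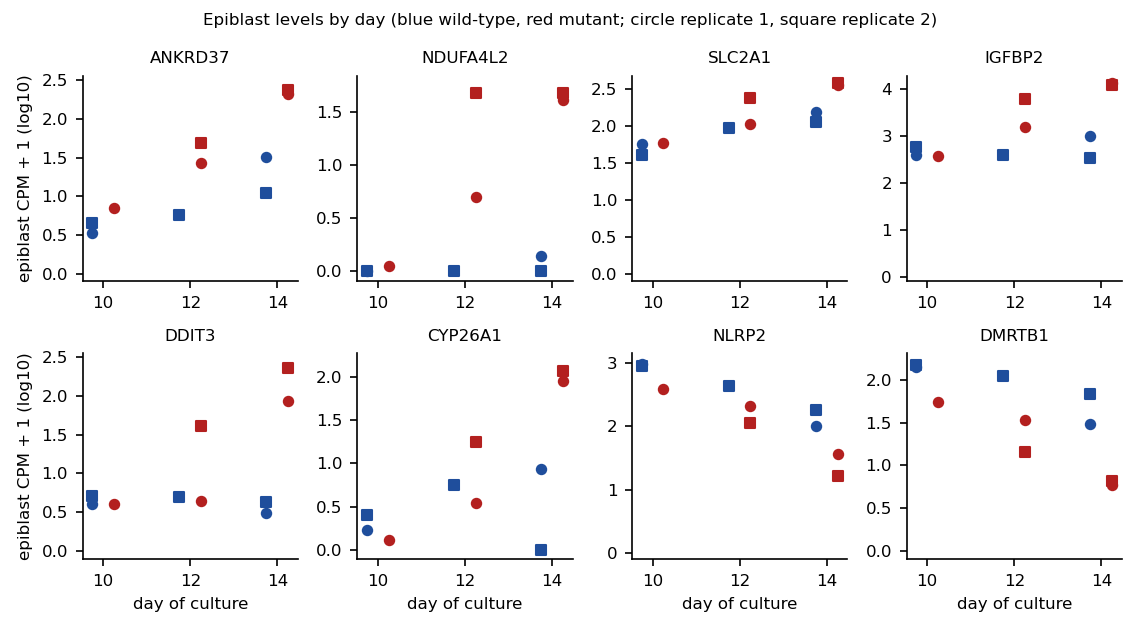
Levels of 8 called genes in the selected epiblast cells of each library with 5 or more of them, as CPM + 1 on a log10 axis, against the day of culture. Blue marks are wild-type and red marks mutant libraries, circles replicate 1 and squares replicate 2. ANKRD37, SLC2A1, IGFBP2, DDIT3 and CYP26A1 are highest and NLRP2 and DMRTB1 lowest in the mutant Day 14 libraries. NDUFA4L2 is as high in mutant replicate 2 of Day 12 as in those libraries.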

How the data were processed

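The authors prepared 11 droplet libraries of cultured embryos (10x 3′ chemistry), aligned and counted reads with Cell Ranger 3.1.0 against the Ensembl annotation of Macaca_fascicularis_5.0, kept genes seen in 3 or more cells, filtered cells on mitochondrial share and removed ambient RNA with SoupX. The deposited corrected values are expected counts (whole numbers after subtraction of ambient UMIs), and the deposited uncorrected values are raw UMI counts, both unscaled. No cell was removed beyond this and no doublet caller was run; cells with a mean of another lineage over 0.5 of the epiblast mean were left out as an alternative instead.

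Cells were selected by the rule given with the results, and their corrected UMIs were summed per library, leaving out libraries with under 5 such cells. Sums (298501 to 8229080 UMIs) were tested with edgeR 4.0.16 (R 4.3.3; TMM, filterByExpr, robust quasi-likelihood fit, two-sided p-values adjusted after Benjamini and Hochberg, threshold 0.05). The 31 genes of the rule were left out of the adjustment; 17 of them passed the filter. CPM are UMIs scaled to 1e6 UMIs over the selected cells of a library. SE is the log2 fold change divided by the root of F. The interaction model held library, cell class and class by genotype. Replicates are libraries of 1 or more embryos, so p-values measure the spread between libraries, which edgeR estimates with information shared across genes. With 4 libraries, the very small p-values of the interaction rest mainly on that sharing, not on the spread of a gene's own libraries. The labels give batches B1 and B2, the replicate numbers used here, in both genotypes without saying whether a batch was shared between them; no block was used in the fit reported first. Alternatives were RLE factors, DESeq2 1.42.0, limma 3.58.1 on mean CPM per cell (10 CPM added before log2, at least 10 CPM in 2 libraries), and other cells, counts and libraries. On simulated data the Day 14 fit (7571 genes) recovered 73.0% of genes changed by 2 and 86.0% of those changed by 3 on the log2 scale, and the interaction fit (13087 genes) 12.0% and 44.0%. The simulation gave all genes and libraries of a cell class 1 common spread and drew the 2 classes independently. Recovery in the real libraries can therefore differ from these shares.

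Of 19367 gene identifiers 1020 have a symbol in the study's supplementary tables, from which names were taken; SOX2 is among the genes not analysed here. Named are the rule's genes, ISL1, the 10 largest called changes in each direction with a symbol, separated libraries and at least 10 CPM in the higher group, and in each of 27 gene lists up to 6 called members and the most abundant ones up to 4; members cited for another test, CA12 and BNIP3 among them, were chosen after their values were seen. Cells, lists and rules were chosen with earlier results of these data known. Listed p-values and fold changes of the authors were not used.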

Additional observations from a re-analysis of the deposited data

Results flagged for a closer look

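Of the 10 higher and 8 lower genes named for the largest changes, 10 had genotype effects that differed between epiblast and trophoblast-highest cells. This was by the test of the interaction (edgeR, adjusted over 13120 genes), in which 294 of all genes passed (2.24%). The genes were chosen for a large epiblast effect, which is 1 side of the difference tested. On the log2 scale the epiblast effect exceeded the trophoblast effect by 6.07 for NDUFA4L2, 5.94 for DDIT3, 4.56 for TMEM191C, 4.52 for MT2A, 3.20 for CYP26A1 and 2.54 for MGARP, with adjusted p between 2.5e-25 and 0.0178. It was below the trophoblast effect by a difference of -2.28 for NLRP2, -1.45 for MKI67 and -1.07 for PTTG1 (adjusted p from 6.54e-06 to 0.0315). DMRTB1 was lower in mutant cells of both classes, by -2.95 in epiblast and -5.27 in trophoblast-highest cells, a difference of 2.29 (adjusted p = 0.00953).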

How the results depend on the processing

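No named gene that was called changed sign under any alternative in which it could be tested. Of 31 named calls, 26 could be tested in cells thinned to 10000 UMIs and 30 without cells under 10000 UMIs. The thinned setting also left out cells under 10000 UMIs. Beside 134 calls at Day 14, totals of 118 to 184 were called (84 to 134 shared with the 134) with RLE factors, all days in the fit, uncorrected counts, further barred genes, the barred or required genes not used, and means over cells. The count was 75 with DESeq2 (64 shared), 58 with cells thinned to 10000 UMIs, 78 without cells under 10000 UMIs (77 shared), 215 without mixed cells, 365 without the low-count filter and 40 at an adjusted p of 0.01. Leaving out 1 library gave 210 to 374 calls (291 without mutant replicate 1, 210 without mutant replicate 2, 374 without wild-type replicate 1, 352 without wild-type replicate 2); the lone library is then assumed to vary like the others. Of 31 named calls 27, 26, 25 and 31 remained, those lost being LOX and CA3 (without mutant replicate 1 or wild-type replicate 1), NPY (the same), LRRIQ1 and IGFBP5 (without mutant replicate 2 or wild-type replicate 1), SNRPG (without either mutant replicate), ISOC1 and PTTG1 (without mutant replicate 2) and TM7SF2 (without wild-type replicate 1). With the replicate block 103 genes were called, 79 of them shared; MKI67, PTTG1, SLC2A1 and ENO2 then had adjusted p of 0.0502 to 0.0760, and NPY, LRRIQ1, SNRPG and IGFBP5 were also lost; deviations of same-numbered libraries correlated at 0.0241. With all days in the fit 17 of 31 named calls remained, and with barred genes not used 18.

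The interaction gave 294 calls, 322 to 363 with other settings and 151 to 258 without 1 library (154 without mutant replicate 1, 159 without mutant replicate 2, 151 without wild-type replicate 1). Mutant against wild-type epiblast, Day 12, gave 139 calls and 606 without the low-count filter; a block or a further library left out had no residual degrees of freedom there and was not run. The mean share of selected cells, 3.11% in wild-type and 1.33% in mutant libraries, moved by less than the SD of the libraries with uncorrected counts or thinned cells, and without 1 library ranged from 0.867% to 5.35% and from 0.773% to 1.88%. The causes of these shifts were not tested. In the 12 cells of wild-type replicate 2, 1 UMI is 3.35 CPM.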

Other observations

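The largest fold change belonged to a gene without a symbol, ENSMFAG00000028216, which was chosen after its values were seen. It had 0 UMIs in both wild-type and 107 and 39 UMIs in the mutant epiblast sums of Day 14, at least 140-fold higher when 3 UMIs over the wild-type group are taken as the floor. In trophoblast-highest cells it had 0.00785 and 0 CPM in wild-type and 13.1 and 10.3 CPM in mutant libraries. It was at 0 in the epiblast cells of both mutant Day 12 libraries and at 16.6 CPM in those of the mutant Day 10 library.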
